A study of Mus musculus with 6 samples.

Results

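The actin cytoskeleton and focal adhesion genes described here are 51 genes chosen by symbol, and all 51 had a row among the 23060 gene names of the deposited expression table. They cover actin itself, the proteins that build, cap, cut, bundle and pull on its filaments, and the plaque that ties filaments to integrins. Expression was measured by RNA-seq in 3 libraries of tachypaced cells and 3 libraries of control cells. Both groups are labelled as wild-type HL-1, an immortalised line derived from mouse atrial muscle that can beat in the dish, and the growth protocol gives both the same Claycomb medium with serum, antibiotics, L-glutamine and norepinephrine. Tachypacing is fast electrical stimulation that serves as a culture model of the atrial rate in fibrillation. The labels state neither how fast nor how long the cells were paced. As a model, HL-1 is a single line grown without the other cells of an atrium. Whether replicates came from separate cultures is not stated, and p-values here therefore reflect no more than library-to-library spread, possibly technical.

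Actin monomers polymerise into filaments whose ends are capped, whose sides are branched by the ARP2/3 complex and whose older parts are cut by cofilin and gelsolin. Myosin II slides filaments against each other, and talin, kindlin, vinculin and paxillin connect them to integrins at sites of adhesion. Cardiomyocytes use this non-sarcomeric actin at the cell cortex and at their junctions, while blood cells use it for migration, phagocytosis and adhesion and carry their own forms of several of its proteins. In these libraries the cardiomyocyte label was not borne out by transcripts. Of 20 cardiomyocyte markers, 18 had a mean below 1 FPKM (fragment counts scaled by transcript length and library total), and 9, among them Myh6, Actc1, Myl7 and Nkx2-5, were listed at 0 in every library. The 2 with a higher mean were Tnni3, at 2.78 to 3.64 FPKM over the 6 libraries, and Tnnc1, at 0.870 to 1.86 FPKM. The summed level of the 20 markers was 4.90 to 5.72 FPKM in tachypaced and 4.98 to 6.08 FPKM in control libraries. Of 20 macrophage markers, 15 had a mean of at least 1 FPKM, and their sum was 2090 to 2296 FPKM in tachypaced and 1693 to 1909 FPKM in control libraries. C1qa, C1qb, C1qc and Mrc1 of that list were at 0 throughout. No fibroblast, smooth muscle or epithelial marker exceeded 0.209 FPKM. Of 8 endothelial markers 6 had a mean below 1 FPKM, Egfl7 and Pecam1 being the others.

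Most of the 51 genes were abundant, and few of them differed between tachypaced and control libraries. The 4 that fell were vinculin (Vcl), filamin A (Flna), gelsolin (Gsn) and gamma actin (Actg1), and the 1 that rose was Vasp, an elongation factor of filament tips. These 5 of 49 tested genes (10.2%) compare with 572 of all 10361 tested genes (5.52%), called by limma at a Benjamini-Hochberg adjusted p threshold of 0.05 over all tested genes. By direction, 1 higher and 4 lower compare with 2.3% and 3.22% of all tested genes. Where the mean reached 5 FPKM, the share was 5 of 48 for these genes (10.4%) and 6.66% for all genes. All changes were small, from 21.6% lower to 21.9% higher mean FPKM, and 32 of the 49 tested genes had means within 10% of each other. The median log2 fold change (tachypaced minus control, on log2(FPKM + 1)) was -0.037 over the 49 genes and -0.037 over all tested genes. It was negative for 32 of the 49 (65.3%) and for 58.9% of all tested genes. No test of the list as a whole was made, since its members were chosen with results of these data known.

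**Figure D1:**
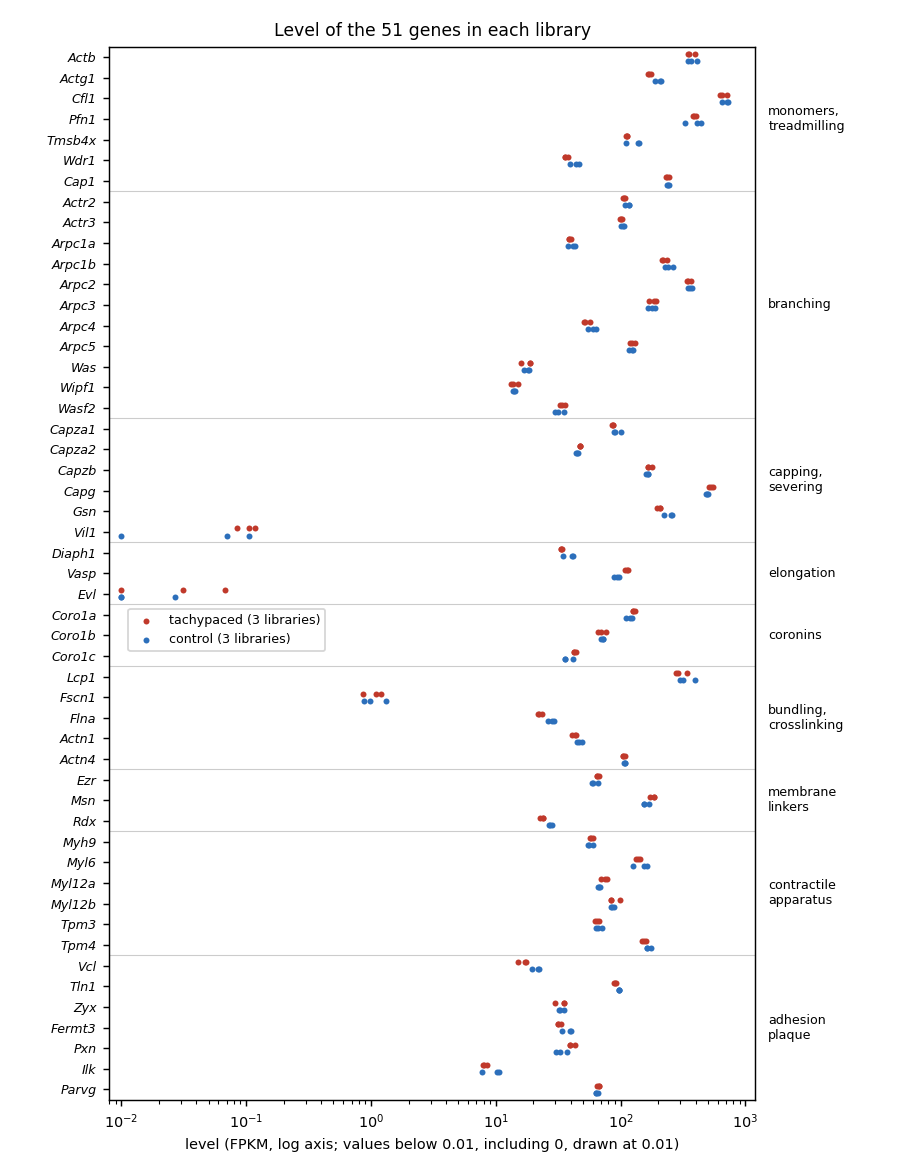
Level of each of the 51 genes in each library, in FPKM on a logarithmic axis, with genes grouped by role; red points are the 3 tachypaced and blue points the 3 control libraries, and values below 0.01 FPKM are drawn at 0.01. Cfl1 is the highest at a mean of 682 FPKM, only Vil1 and Evl have a mean below 1 FPKM, and most red and blue points of a gene lie close together.

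The libraries' FPKM values summed to 411050 to 432244, and depth is unknown because the low values did not fall on the steps that whole reads would give. The 51 genes made up 1.45% to 1.48% of this total in tachypaced libraries and 1.49% to 1.59% in control libraries. Over the 49 genes, control replicate 1 lay apart from the other controls, within the range of the tachypaced libraries. The median deviation from the control mean on the log2 scale was -0.067 to -0.013 in the tachypaced libraries, -0.040 in control replicate 1, and 0.015 and 0.023 in control replicates 2 and 3. Over all tested genes it was -0.047 to -0.018 in the tachypaced libraries, -0.0071 and -0.0097 in control replicates 1 and 2, and 0.021 in control replicate 3. The medians of control replicates 1 and 2 were alike, which does not make these libraries alike gene by gene. Control replicate 1 was the control closest to the tachypaced mean in 31 of the 49 genes, and in 55.1% of all tested genes. Without it, 18 of the 49 genes passed the test, 5 higher and 13 lower, as did 30.0% of all tested genes (11.2% higher and 18.8% lower). Without any other single library (tachypaced replicate 1, 2 or 3, or control replicate 2 or 3) limma called 0 of the 49 and at most 12 higher and 1 lower among all genes, with 10 to 12 of the 49 at an unadjusted p below 0.05, compared with 14 when all libraries were used. Among all genes 238 were higher and 334 lower, so that 41.6% of calls were higher. Median of ratios scaling gave 59.8% (268 higher and 180 lower) and rescaling to a common FPKM total 21.3% (250 and 922). Quantile normalization gave 76.5%, but of few calls (13 higher and 4 lower).

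Beside these changes, 4 of 15 tested macrophage markers passed the test (26.7%, against 5.52% of all tested genes), all higher in tachypaced libraries (Lyz2, Cd14, Ctss and Fcer1g). Of the 15, 13 had a positive log2 fold change. Their part in the changes of the actin genes was not tested. In bulk RNA, fewer cells of a type and less RNA per cell cannot be told apart.

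**Figure D2:**
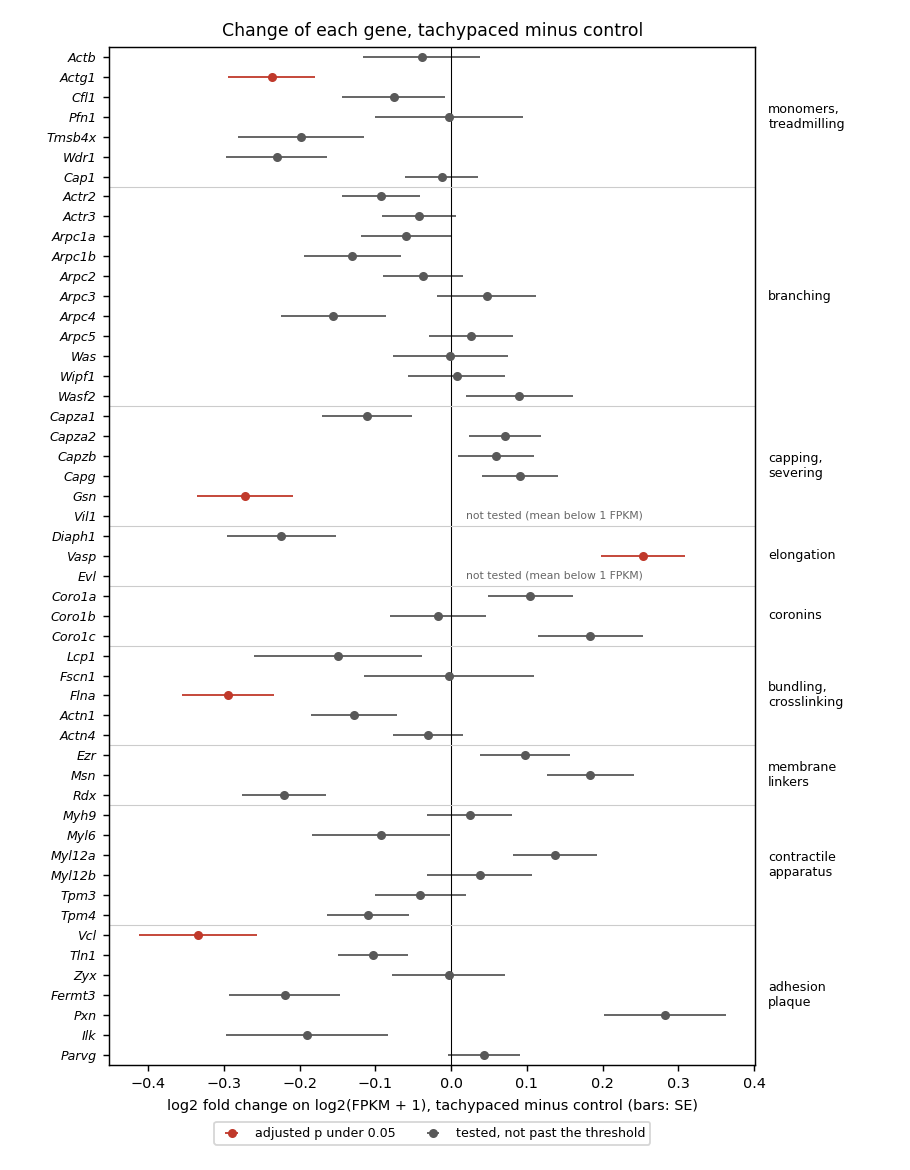
Log2 fold change of each gene on the log2(FPKM + 1) scale, tachypaced minus control, with the standard error as a bar; red marks an adjusted p under 0.05. Of the red points, 4 lie below 0 (Vcl, Flna, Gsn and Actg1) and Vasp lies above it, while Pxn lies farther above 0 than Vasp without passing.

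Serum response factor (SRF) with its actin-sensing coactivators MRTF-A and MRTF-B drives many cytoskeletal genes through the CArG box, a short AT-rich motif flanked by CC and GG. Promoter sequences, here 250 bases before to 50 bases after a transcription start, were available from RefSeq (GRCm38.p6) for 47 of the 51 genes. Actb, Coro1b, Diaph1 and Pxn had none in that table. A CArG box, whose pattern reads the same on both strands, was found for 1.81% of all 27025 genes with a promoter. It was found for 1.47% of the 8024 tested genes with one, and for 5 of the 47 genes (10.6%). These 5 were Actg1, Vcl, Myl6, Arpc4 and Vil1. They include 2 of the 4 genes that fell, while no box was in the single window of Flna, the 3 windows of Gsn or the single window of Vasp. How often a box occurs among all tested genes that fell was not counted, so this overlap has no share to be read against. The 250 bases before the start of Actg1 (chr11:120348496-120348745, minus strand), Vcl (chr14:20929148-20929397, plus strand) and Myl6 (chr10:128493010-128493259, minus strand, 1 of 2 windows) are shown 5′ to 3′ because their boxes sit in the windows of 2 genes that fell and of 1 that did not pass. Capitals mark the box.
Actg1: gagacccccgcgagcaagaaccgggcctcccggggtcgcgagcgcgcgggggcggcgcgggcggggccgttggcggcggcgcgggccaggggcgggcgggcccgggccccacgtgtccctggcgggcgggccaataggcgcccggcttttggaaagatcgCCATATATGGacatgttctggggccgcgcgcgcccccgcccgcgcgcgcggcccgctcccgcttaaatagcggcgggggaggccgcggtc
Vcl: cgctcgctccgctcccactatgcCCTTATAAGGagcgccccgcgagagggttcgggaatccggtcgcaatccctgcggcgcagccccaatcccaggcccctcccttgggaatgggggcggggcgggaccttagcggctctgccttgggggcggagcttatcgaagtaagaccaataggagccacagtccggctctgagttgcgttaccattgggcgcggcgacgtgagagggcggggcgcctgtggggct
Myl6: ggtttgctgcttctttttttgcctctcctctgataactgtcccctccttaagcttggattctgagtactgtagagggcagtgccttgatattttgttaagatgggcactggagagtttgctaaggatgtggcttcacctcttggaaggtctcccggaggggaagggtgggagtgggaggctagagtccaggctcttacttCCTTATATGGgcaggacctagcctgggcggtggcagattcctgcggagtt

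The box began 90 bases before the start in Actg1, 227 in Vcl and 50 in Myl6. Its letters were CCATATATGG in Actg1, CCTTATAAGG in Vcl and CCTTATATGG in Myl6. Beside Actg1 and Vcl, which fell, Myl6 had a log2 fold change of -0.09 (limma adjusted p = 0.521) and Arpc4, a subunit of the ARP2/3 complex, of -0.16 (limma adjusted p = 0.171), neither of which passed. Without control replicate 1 these values were -0.21 for both, with limma adjusted p of 0.0175 for Myl6 and 0.0273 for Arpc4. In that fit 30.0% of all tested genes passed (18.8% lower), and neither gene passed under any other alternative setting. Vil1 was too low to test, and whether genes with a box differ from the others was not tested. Srf itself stood at 19.0, 21.7 and 20.9 FPKM in tachypaced and at 19.5, 17.9 and 18.4 FPKM in control libraries, which overlap (limma adjusted p = 0.211). Mrtfa, which encodes MRTF-A, stood at 12.8, 14.0 and 13.7 FPKM in tachypaced and 12.1, 11.4 and 11.2 FPKM in control libraries, all tachypaced values being higher without passing the test (limma adjusted p = 0.0780), and Mrtfb stood between 2.67 and 3.015 FPKM. Of 20 SRF-related genes outside the 51, 10 could be tested and limma called 0. An unadjusted p below 0.05 was reached by 4 of the 10, against 30.2% of all tested genes. Mrtfa, Ier2 and Tpm1 were the higher ones in tachypaced libraries, by log2 fold changes of 0.21, 0.25 and 0.19. Tagln2 was lower, by -0.20. Tpm1 was abundant at 133 to 166 FPKM, as were Junb at 65.7 to 78.0 FPKM and Tagln2 at 44.1 to 58.2 FPKM. The classical targets Acta2, Tagln, Cnn1, Myl9, Ccn1 and Ccn2 of the same list were at or below 0.209 FPKM in every library.

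Among the genes of the actin monomer and its turnover, gamma actin fell and beta actin did not pass. Actg1 (chromosome 11, 120345690 to 120348542, GRCm38), whose promoter is printed above, stood at 167, 169 and 176 FPKM in tachypaced libraries and at 188, 210.2 and 206 FPKM in control libraries. The groups did not overlap, and control replicate 1 was the lowest control. Means were 171 ± 4.56 FPKM in tachypaced and 201 ± 12.1 FPKM in control libraries (SD, n = 3 each), a log2 fold change of -0.24 (SE 0.057, limma adjusted p = 0.0491).

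Actb, the other cytoplasmic actin, stood at 344, 396 and 350.4 FPKM in tachypaced and 346, 367 and 408 FPKM in control libraries, overlapping ranges (log2 fold change -0.039, limma adjusted p = 0.763). The ratio of Actg1 to Actb was 0.485, 0.426 and 0.501 in tachypaced libraries and 0.542, 0.572 and 0.505 in control libraries. Every tachypaced ratio lay below every control ratio, although tachypaced replicate 3 and control replicate 3 were nearly equal (exact permutation p = 0.1, two-sided, the smallest that 3 against 3 libraries can give, and 0.15 adjusted over 6 ratios). The coding sequences of both actin genes are similar, so some reads could be assigned to either gene, which was not tested.

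The other turnover genes gave no call. Cfl1, cofilin 1, which severs ageing filaments, was the most abundant of all 51 genes at 629, 715 and 649 FPKM in tachypaced and 651, 730.3 and 718 FPKM in control libraries, with overlapping groups (limma adjusted p = 0.479). Wdr1, which speeds cofilin's work, stood at 35.8, 35.8 and 37.8 FPKM in tachypaced and at 39.4, 46.0 and 43.6 FPKM in control libraries. All its tachypaced values were the lower ones, at a log2 fold change of -0.23 that did not pass (limma adjusted p = 0.0675).

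Tmsb4x, thymosin beta 4, which sequesters monomers, stood at 111, 113 and 112 FPKM in tachypaced libraries. Its control values were 111, 138 and 139 FPKM, so control replicate 1 alone sat at the tachypaced level (limma adjusted p = 0.150). The monomer-binding genes Pfn1 (profilin 1) and Cap1 had means of 390 ± 10.5 and 237 ± 6.89 FPKM in tachypaced and 394 ± 58.7 and 239 ± 4.84 FPKM in control libraries (SD, n = 3 each). All 7 genes of this role had negative log2 fold changes, as did 58.9% of all tested genes. Those of Actb, Pfn1 and Cap1 turned positive under median of ratios scaling.

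**Figure D3:**
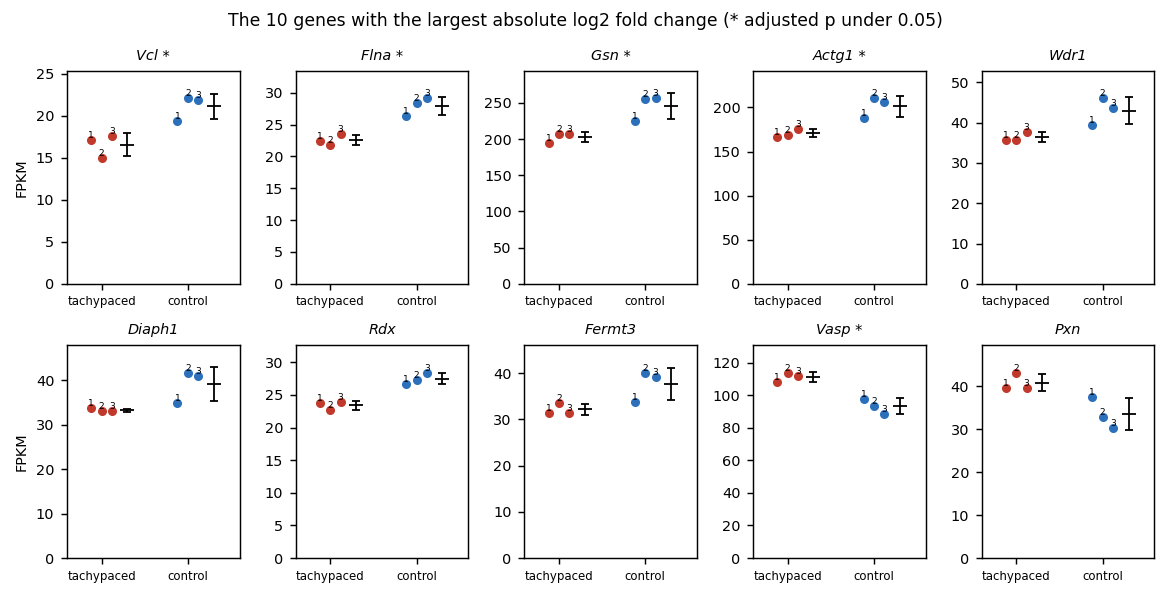
FPKM in each library, numbered by replicate, for the 10 genes with the largest absolute log2 fold change, with the mean and SD of the 3 libraries at the right of each group; axes start at 0. In all 10 panels the groups do not overlap, and in all 10 control replicate 1 (left blue point) is the control nearest to the tachypaced values. Over all tested genes these shares are 34.9% and 55.1%, and the 10 genes were picked by their change in these same libraries.

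The ARP2/3 complex, which starts new branches on existing filaments, and its activators gave no call. Limma called 0 of 11 genes, 0 had an unadjusted p below 0.05, and the groups of all 11 overlapped. Over all tested genes limma called 5.52%, 30.2% had an unadjusted p below 0.05, and 34.9% had groups that did not overlap. Arpc2 was the most abundant subunit, at 364, 345 and 339.9 FPKM in tachypaced and 358, 372 and 346 FPKM in control libraries (limma adjusted p = 0.666). The summed level of the 8 subunit genes was 1156 to 1202 FPKM in tachypaced and 1172 to 1245 FPKM in control libraries.

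Although the complex holds 1 copy of each kind of subunit, FPKM differed widely between its genes, with means over the 6 libraries of 354 for Arpc2, 234 for Arpc1b, 180.03 for Arpc3, 123 for Arpc5, 110.5 for Actr2, 102 for Actr3, 56.3 for Arpc4 and 39.9 for Arpc1a. Of the alternative forms, Arpc1b exceeded Arpc1a by 5.48 to 6.10 times in tachypaced and 5.61 to 6.40 times in control libraries, overlapping ranges (exact permutation p = 0.4, two-sided, and 0.4 adjusted over 6 ratios). Was, the blood cell activator defective in Wiskott-Aldrich syndrome, its partner Wipf1 and the WAVE subunit Wasf2 had means of 17.9, 14.0 and 33.1 FPKM over the 6 libraries.

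Arpc5l, an alternative to Arpc5 from the list of further genes, did rise. It stood at 105.5, 121 and 107 FPKM in tachypaced and at 93.5, 76.2 and 73.7 FPKM in control libraries, with no overlap and a log2 fold change of 0.45 (SE 0.093, limma adjusted p = 0.0435). Arpc5 stood at 119.6, 131 and 123 FPKM in tachypaced and at 117, 126 and 124 FPKM in control libraries (log2 fold change 0.026, limma adjusted p = 0.784). The ratio of Arpc5l to Arpc5 was thus 0.882, 0.918 and 0.868 in tachypaced and 0.798, 0.607 and 0.594 in control libraries. These ratios did not overlap between groups (exact permutation p = 0.1, two-sided, the smallest possible, and 0.15 adjusted over 6 ratios). They draw on the same values as the call of Arpc5l and are no separate support for it.

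Among capping and severing genes, gelsolin fell. Gsn (chromosome 2, 35256380 to 35307892), a calcium-dependent severing and capping protein, stood at 195, 206 and 207 FPKM in tachypaced libraries and at 224, 256 and 256 FPKM in control libraries. No values overlapped, and the lowest control was again replicate 1. Means were 203 ± 7.07 FPKM in tachypaced and 245 ± 18.1 FPKM in control libraries (SD, n = 3 each), a log2 fold change of -0.27 (SE 0.064, limma adjusted p = 0.0473).

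Capg, a gelsolin relative abundant in macrophages that caps without severing, stood at 508, 549 and 527 FPKM in tachypaced and at 495, 505 and 486 FPKM in control libraries. Its tachypaced values were all higher by a small margin (log2 fold change 0.09, limma adjusted p = 0.254). The capping protein genes Capza1, Capza2 and Capzb had means of 86.1 ± 1.28, 47.2 ± 0.173 and 170.2 ± 7.01 FPKM in tachypaced and 93.2 ± 6.38, 44.9 ± 0.5004 and 163 ± 2.63 FPKM in control libraries (SD, n = 3 each). Each of the 3 had groups that did not overlap, as did 34.9% of all tested genes. Capza1 was lower and the others higher in tachypaced libraries, and none passed (limma adjusted p from 0.231 to 0.452). The ratio of Capza1 to Capza2, alternative alpha subunits, was 1.83 ± 0.0276 in tachypaced and 2.08 ± 0.126 in control libraries without overlap (SD, n = 3 each, exact permutation p = 0.1, two-sided, the smallest possible, and 0.15 adjusted over 6 ratios). Villin (Vil1), an epithelial gelsolin relative, was not tested, at 0.0850 to 0.118 FPKM in tachypaced and 0 to 0.105 FPKM in control libraries.

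Of the factors that lengthen filaments, Vasp was the only one of the 51 genes to rise. Vasp (chromosome 7, 19256929 to 19271817), which binds growing ends and keeps capping protein off them, stood at 108, 114 and 112 FPKM in tachypaced and at 97.9, 93.6 and 88.1 FPKM in control libraries. The groups did not overlap, and the highest control was replicate 1. Means were 111 ± 3.05 FPKM in tachypaced and 93.2 ± 4.90 FPKM in control libraries (SD, n = 3 each), a log2 fold change of 0.25 (SE 0.055, limma adjusted p = 0.0448).

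Diaph1, a formin that elongates unbranched filaments downstream of RhoA, stood at 33.7, 33.0 and 33.0 FPKM in tachypaced and at 34.8, 41.7 and 40.9 FPKM in control libraries. All tachypaced values were lower, control replicate 1 lying only just above them, and the gene did not pass (log2 fold change -0.22, limma adjusted p = 0.0843). Evl, a Vasp relative, was not tested, at 0 to 0.0682 FPKM in tachypaced and 0 to 0.0272 FPKM in control libraries.

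Coronins, which couple ARP2/3 branching to filament disassembly, gave 0 calls by limma among 3 genes, with 1 at an unadjusted p below 0.05. Limma called 5.52% of all tested genes, and 30.2% had such an unadjusted p. Coro1a, the blood cell form, was the most abundant at 126, 129.5 and 125 FPKM in tachypaced and 119, 124 and 111 FPKM in control libraries. Its tachypaced values were all higher by little (log2 fold change 0.10, limma adjusted p = 0.234). Coro1c stood at 42.1, 44.1 and 42.0 FPKM in tachypaced and 41.6, 35.7 and 35.6 FPKM in control libraries, control replicate 1 lying just below the tachypaced values (limma adjusted p = 0.118). Coro1b overlapped between groups, at means of 70.4 ± 5.47 FPKM in tachypaced and 71.2 ± 1.79 FPKM in control libraries (SD, n = 3 each).

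In the bundling and crosslinking role, filamin A fell. Flna (chromosome X, 74223461 to 74249820), which holds filaments in orthogonal networks and anchors them to membrane proteins, stood at 22.3, 21.8 and 23.5 FPKM in tachypaced libraries and at 26.3, 28.4 and 29.1 FPKM in control libraries. The groups were clearly apart, with a gap of control replicate 1 to the tachypaced libraries larger than their own spread. Means were 22.6 ± 0.843 FPKM in tachypaced and 27.9 ± 1.47 FPKM in control libraries (SD, n = 3 each), a log2 fold change of -0.29 (SE 0.061, limma adjusted p = 0.0435).

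Lcp1, L-plastin, a bundler of blood cells, was the most abundant of this role at 341, 288 and 279 FPKM in tachypaced and 300.4, 315 and 396 FPKM in control libraries. These ranges overlapped widely (limma adjusted p = 0.388). The alpha-actinins Actn1 and Actn4 had means of 42.8 ± 1.54 and 105.6 ± 1.80 FPKM in tachypaced and 46.9 ± 2.24 and 108 ± 1.003 FPKM in control libraries (SD, n = 3 each), without a call. Fscn1, fascin, the bundler of filopodia, was the lowest gene tested, at 0.867 to 1.20 FPKM in tachypaced and 0.874 to 1.32 FPKM in control libraries.

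The ERM proteins ezrin, radixin and moesin link filaments to the plasma membrane and are close relatives. Limma called 0 of the 3 genes, against 5.52% of all tested genes. An unadjusted p below 0.05 was found for 2 of the 3, against 30.2% of all tested genes, and those 2 lay on opposite sides. Msn stood at 186, 184 and 174 FPKM in tachypaced and at 169.9, 155 and 153 FPKM in control libraries, all tachypaced values being higher (log2 fold change 0.18, limma adjusted p = 0.0814). Rdx stood at 23.8, 22.7 and 23.9 FPKM in tachypaced and at 26.7, 27.4 and 28.4 FPKM in control libraries, all tachypaced values being lower (log2 fold change -0.22, limma adjusted p = 0.0519). The ratio of Msn to Rdx was 7.74 ± 0.426 in tachypaced and 5.81 ± 0.4997 in control libraries without overlap (SD, n = 3 each, exact permutation p = 0.1, two-sided, the smallest possible, and 0.15 adjusted over 6 ratios). Ezr overlapped between groups, at 65.9 ± 1.41 FPKM in tachypaced and 61.6 ± 4.07 FPKM in control libraries (SD, n = 3 each).

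The non-muscle contractile apparatus gave 0 calls by limma among 6 genes, with 1 at an unadjusted p below 0.05, the regulatory light chain Myl12a. Limma called 5.52% of all tested genes, and 30.2% had such an unadjusted p. Tpm4, a tropomyosin that coats filaments, was the most abundant at 159.9, 155 and 149 FPKM in tachypaced and 162, 175 and 164 FPKM in control libraries. All its tachypaced values lay below the controls by a small gap (log2 fold change -0.11, limma adjusted p = 0.203). Myh9, the non-muscle myosin IIA heavy chain, stood at 58.1 ± 2.11 FPKM in tachypaced and 57.1 ± 2.59 FPKM in control libraries (SD, n = 3 each), whereas its relative Myh10 (myosin IIB) did not exceed 0.1 FPKM in any library. The light chain Myl6 has a CArG box in 1 of 2 promoter windows. Its levels overlapped between groups, at 137 ± 5.42 FPKM in tachypaced and 147 ± 19.7 FPKM in control libraries (SD, n = 3 each). Myl12a and Myl12b, which lie on chromosome 17 and are so alike that their reads could be mixed, had log2 fold changes of 0.14 and 0.037, the second turning negative when libraries were rescaled to a common FPKM total. Their ratio was 0.836 ± 0.0507 in tachypaced and 0.779 ± 0.0109 in control libraries, which overlapped (SD, n = 3 each, exact permutation p = 0.2, two-sided, and 0.24 adjusted over 6 ratios).

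In the adhesion plaque, vinculin fell by the largest log2 fold change of the 49 tested genes. Vcl (chromosome 14, 20929398 to 21033676), which is recruited to talin under tension and binds actin, stood at 17.2, 15.0 and 17.5 FPKM in tachypaced libraries and at 19.4, 22.1 and 21.9 FPKM in control libraries. The groups did not overlap, with control replicate 1 nearest to the tachypaced values. Means were 16.6 ± 1.375 FPKM in tachypaced and 21.1 ± 1.48 FPKM in control libraries (SD, n = 3 each), a log2 fold change of -0.33 (SE 0.078, limma adjusted p = 0.0472).

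Pxn, paxillin, a scaffold of the same plaque, lay on the other side, at 39.7, 43.2 and 39.7 FPKM in tachypaced and 37.5, 32.8 and 30.2 FPKM in control libraries. All tachypaced values were higher, but the controls were spread and the gene did not pass (log2 fold change 0.28, SE 0.080, limma adjusted p = 0.0657). Fermt3, kindlin 3, the integrin activator of blood cells, stood at 31.4, 33.6 and 31.4 FPKM in tachypaced and 33.7, 40.1 and 39.2 FPKM in control libraries. Control replicate 1 lay just above the tachypaced values (log2 fold change -0.22, limma adjusted p = 0.0904).

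Tln1, talin 1, which links integrins to actin, was the most abundant plaque gene, at 88.0, 91.5 and 89.6 FPKM in tachypaced and 96.2, 96.4 and 96.6 FPKM in control libraries. Here the 3 controls nearly coincided and all exceeded the tachypaced libraries, at a log2 fold change of -0.10 (limma adjusted p = 0.171). Ilk, the scaffold pseudokinase of the integrin-linked complex, had 8.15 ± 0.300 FPKM in tachypaced and 9.52 ± 1.57 FPKM in control libraries (SD, n = 3 each). Zyx, zyxin, was at 33.2 ± 3.04 FPKM in tachypaced and 33.2 ± 1.51 FPKM in control libraries (SD, n = 3 each). Parvg, the blood cell parvin, was at 66.5 ± 1.33 FPKM in tachypaced and 64.5 ± 1.009 FPKM in control libraries (SD, n = 3 each). None of these 4 passed.

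Across the 49 tested genes the groups did not overlap in 21 (42.9%), 12 lower and 9 higher in tachypaced libraries, against 34.9% of all tested genes (22.4% lower and 12.6% higher). Unadjusted p-values were below 0.05 for 28.6% of the 49 and 30.2% of all tested genes. The 5 called genes had adjusted p-values of 0.0435 to 0.0491, close to the threshold. Flna and Vasp passed under 7 of 15 alternative settings, and Actg1, Gsn and Vcl under 6. All 5 kept their direction under median of ratios scaling, quantile normalization and a common FPKM total. The remaining settings could not change it, because the groups of these genes do not overlap.

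**Figure D4:**
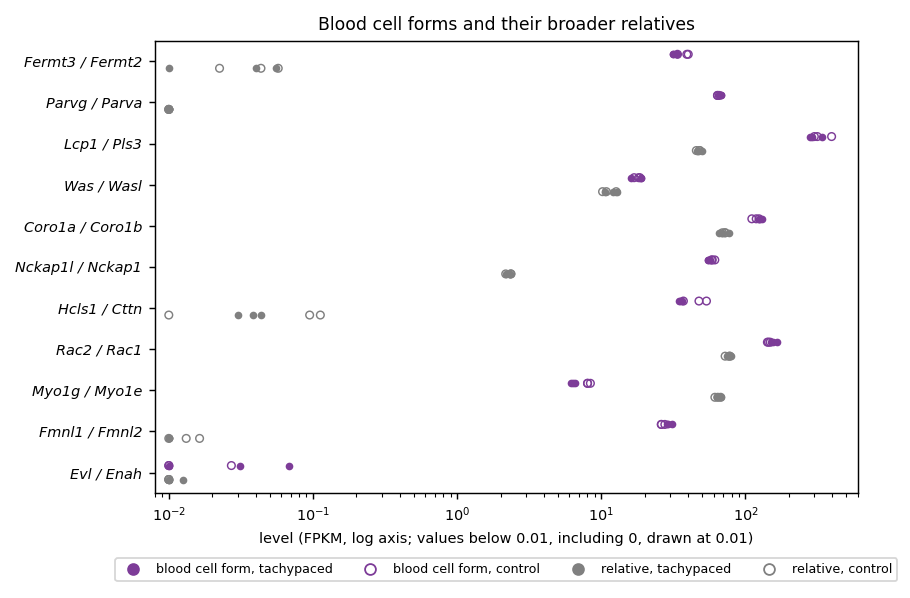
Level in each library (FPKM, logarithmic axis, values below 0.01 drawn at 0.01) of 11 blood cell forms (purple) and a broader relative of each (grey), with filled points for tachypaced and open points for control libraries. The purple points lie to the right of the grey ones in 9 of the 11 pairs, Myo1g and Evl being the exceptions.

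In 9 of 11 pairs of related genes the blood cell form exceeded its broader relative in all 6 libraries, and several of the broader relatives were expressed too. Fermt3 stood at 31.4 to 40.1 FPKM over the 6 libraries against at most 0.0574 FPKM for Fermt2 (kindlin 2, the form of most adherent cells and of heart muscle). Parvg stood at 63.9 to 67.4 FPKM while Parva was listed at 0 throughout, although Parvb, a further parvin, was at 65.8 to 69.65 FPKM. Hcls1, the blood cell relative of cortactin, stood at 34.8 to 53.6 FPKM against at most 0.113 FPKM for Cttn, and Fmnl1 at 26.1 to 31.1 FPKM against at most 0.0163 FPKM for Fmnl2.

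Other pairs were both expressed. The ratio of the blood cell form to its relative over the 6 libraries was 23.8 to 28.2 for Nckap1l and Nckap1 (WAVE complex subunits), 5.97 to 8.67 for the plastins Lcp1 and Pls3, 1.85 to 2.10 for the small GTPases Rac2 and Rac1, 1.6003 to 1.91 for Coro1a and Coro1b, and 1.32 to 1.77 for Was and Wasl. The class I myosin Myo1g, by contrast, was at 6.12 to 8.40 FPKM below Myo1e at 61.3 to 67.4 FPKM. These levels describe both groups of libraries alike and involve no test.

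Of 110 further genes of actin and adhesion, 85 could be tested, 3 rose and 6 fell (10.6%, against 5.52% of all tested genes), and their median log2 fold change was -0.018. Those that rose were Marcksl1, Arpc5l and Pdlim7. Marcksl1, a membrane-bound actin-binding protein, stood at 107, 120.02 and 99.98 FPKM in tachypaced and 86.6, 67.5 and 64.3 FPKM in control libraries. It had the largest change of this list (log2 fold change 0.58, SE 0.11, limma adjusted p = 0.0435), with control replicate 1 again nearest to the tachypaced values. Pdlim7, a PDZ and LIM protein of filaments, stood at 30.5, 29.6 and 28.1 FPKM in tachypaced and 23.6, 22.65 and 22.8 FPKM in control libraries, where the 3 controls lay within 1 FPKM (limma adjusted p = 0.0435).

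The genes that fell were Anln, Dbnl, Inf2, Myo1g, Rock1 and Twf2. Anln, anillin, a scaffold of the cytokinetic ring, stood at 11.3, 10.9 and 12.4 FPKM in tachypaced and 14.4, 17.6 and 19.5 FPKM in control libraries (log2 fold change -0.53, limma adjusted p = 0.0435). Dbnl, an actin-binding adaptor of endocytosis, stood at 17.6, 19.6 and 19.7 FPKM in tachypaced and 21.7, 27.2 and 27.8 FPKM in control libraries (log2 fold change -0.41, limma adjusted p = 0.0475). In both genes the controls spread more widely than the tachypaced libraries, and replicate 1 was the lowest control.

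Inf2, a formin that also severs, stood at 14.0, 14.7 and 14.7 FPKM in tachypaced and 16.5, 18.4 and 20.45 FPKM in control libraries (log2 fold change -0.33, limma adjusted p = 0.0484). Rock1, a kinase downstream of RhoA that promotes myosin light chain phosphorylation, stood at 8.67, 8.48 and 9.12 FPKM in tachypaced and 10.6, 10.4 and 11.8 FPKM in control libraries (log2 fold change -0.29, limma adjusted p = 0.0479). In Rock1 control replicate 2, not replicate 1, was the lowest control.

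Myo1g stood at 6.12, 6.39 and 6.59 FPKM in tachypaced and 8.02, 8.03 and 8.40 FPKM in control libraries, 2 tight groups (log2 fold change -0.31, limma adjusted p = 0.0435). Twf2, twinfilin 2, a monomer-binding and capping protein, stood at 22.8, 21.1 and 23.6 FPKM in tachypaced and 26.0, 29.2 and 27.1 FPKM in control libraries (log2 fold change -0.27, limma adjusted p = 0.0492). Hcls1 stood at 34.8, 35.2 and 36.5 FPKM in tachypaced and 37.1, 47.6 and 53.6 FPKM in control libraries and did not pass (limma adjusted p = 0.0843), its lowest control being replicate 1.

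**Figure D5:**
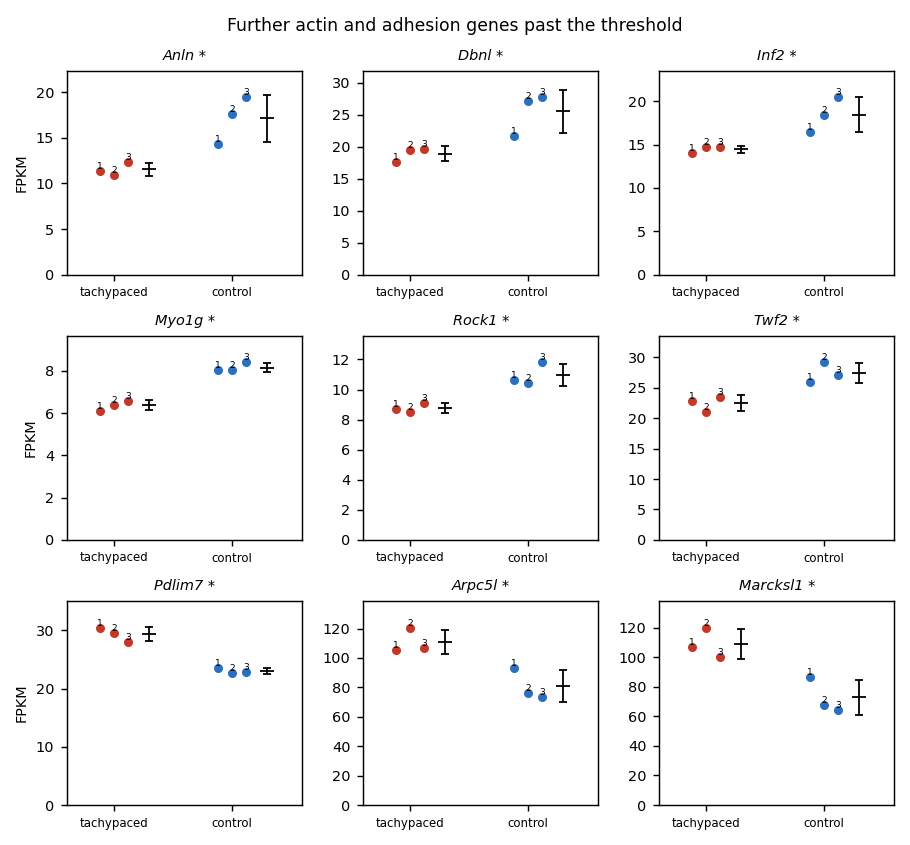
FPKM in each library, numbered by replicate, for the 9 further actin and adhesion genes past the threshold, with the mean and SD of the 3 libraries at the right of each group; axes start at 0. Tachypaced values (red) are all below the controls (blue) in Anln, Dbnl, Inf2, Myo1g, Rock1 and Twf2 and all above them in Pdlim7, Arpc5l and Marcksl1. The 9 genes were picked by the test on these same libraries, and groups do not overlap in 34.9% of all tested genes.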

How the data were processed

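Gene expression in 6 libraries was deposited by the authors as FPKM, on genome build GRCm38 (mm10) per the submitters' processing notes. RNA was made into libraries with a SMARTER mRNA kit, per the labels' protocols. Not given in the sources used here are the aligner, the quantifier, the annotation and strandedness. FPKM is relative to each library's total, and reads of near-identical genes can be assigned to either. Columns were matched to samples by the sample descriptions and groups were taken from the titles. No 2 libraries held identical values. Ratios of low values clustered on no step (at most 3.18% shared a log2 interval 0.05 wide), so depth is unknown and no interval or detection floor is given.

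Values were transformed to log2(FPKM + 1), a scale that understates changes of low genes. Genes averaging 1 FPKM or more, 10361 in all, were fitted with limma 3.58.1 in R 4.3.3 (trend, two-sided, tachypaced minus control), without covariates, and adjusted together. The steps were tested on simulated data with independent noise and log2 changes of 0.5 and 1. These are larger than any change of the 49 tested genes, so the power for changes of their size is not known. Gene positions came from GENCODE M21. Ratios were compared by exact permutation in scipy 1.17.1. They use the same values as the gene tests and are no separate support for them. With 3 libraries a group, no ratio could reach a p of 0.05.

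The 51 genes, the further lists and the tests were chosen with earlier results of these data known. Genes given in full were all those past the threshold, the 10 with the largest absolute change and the most abundant of each role. Of the further genes these were up to 6 past the threshold in each direction, the pairs, and Srf, Mrtfa and Mrtfb. The 15 alternatives were a pseudocount of 0.1, no filter, a minimum mean of 5 FPKM, 3 other scalings, limma without trend or with robust hyperparameters, a replicate block, and each of the 6 libraries omitted in turn.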

Additional observations from a re-analysis of the deposited data

How the results depend on the processing

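With all 6 libraries, all genes gave 238 higher and 334 lower, the 51 genes 1 and 4, and the further list 3 and 6. Without the filter on low values there were 0 calls in all 3 sets (15 of the 51 genes at an unadjusted p below 0.05), and limma without trend left 2 higher and 0 lower among all genes and 0 in both lists (12 of 49 at an unadjusted p below 0.05). Quantile normalization left 13 and 4 among all genes and 0 in both lists (19 of 49 at an unadjusted p below 0.05). Median of ratios scaling took the lower calls to 180, 1 and 2 in these 3 sets, and a common FPKM total to 922, 8 and 11. The median log2 fold change of the 49 genes was 0.0057 with the first of these scalings and -0.076 with the second, beside medians of 0.00069 and -0.072 over all genes. A pseudocount of 0.1 gave the same 5 calls among the 51 genes, and a minimum of 5 FPKM and robust hyperparameters added Rdx to them. Leaving out 1 library gave 1 to 1162 higher and 0 to 1947 lower among all genes, 0 to 5 and 0 to 13 among the 51, and 0 to 11 and 0 to 16 in the further list. The highest of each came without control replicate 1, and without any other library both lists had 0. The cause of these shifts was not tested.

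Same-numbered libraries had correlations of 0.061, -0.034 and 0.157 in their deviations from the group means. Tachypaced replicates 1 and 3 correlated best with the control of the same number, and tachypaced replicate 2 with control replicate 1 (0.081). With 3 libraries a group, these values cannot decide whether the replicate numbers pair the samples. The replicate block gave 334 higher and 591 lower among all genes, the same 5 calls among the 51, and 3 higher and 8 lower in the further list. Depth is unknown and limits the lowest genes most, and 3 libraries a group cannot give an exact permutation p below 0.1.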

Other observations

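Of 25 genes for the muscle forms of the same families, 5 could be tested and limma called 0, with 2 at an unadjusted p below 0.05. Limma called 5.52% of all tested genes, and 30.2% had such an unadjusted p. Tpm1, a tropomyosin of both muscle and other cells, was the abundant one, at 166, 164 and 159 FPKM in tachypaced and 152, 133 and 143 FPKM in control libraries. All its tachypaced values were higher without passing the test (log2 fold change 0.19, limma adjusted p = 0.0740). Tpm2 stood at 10.2, 11.02 and 11.6 FPKM in tachypaced and 11.4, 11.4 and 9.81 FPKM in control libraries, with overlapping groups. The others tested were Cfl2 (muscle cofilin), Flnc (filamin C) and Tmod1, with log2 fold changes of -0.18, -0.13 and 0.31. Of the 25 genes, 8 were listed at 0 in every library, among them the skeletal and cardiac actins Acta1 and Actc1, and the sarcomeric alpha-actinin Actn2 did not exceed 0.0456 FPKM.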
